A study of Mus musculus with 4 samples.

Results

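The Dlx homeobox genes and their antisense RNAs were followed in cells sorted from embryos with or without a conditional deletion of Dnmt1, the maintenance DNA methyltransferase. The 7 members were taken by name from the 56883 genes of the table: the protein-coding genes Dlx1, Dlx2, Dlx5 and Dlx6 and the antisense RNAs Dlx1as, Dlx6os1 and Dlx6os2. All 7 averaged a normalized count of 10 or more over the libraries and were tested, with 14323 genes in all. The cells were tdTomato-positive, sorted at E14.5 from the mouse basal telencephalon, with 2 libraries from Sst-Cre/tdTomato embryos (control) and 2 from Sst-Cre/tdTomato/Dnmt1 loxP2 embryos (Dnmt1 KO). Both genotypes carried the Cre recombinase driven from the Sst locus and the tdTomato reporter, so that every cell with a history of Sst-driven Cre could be labelled, and the KO added the floxed Dnmt1 allele. Each library held cells pooled from several embryos whose sex was not distinguished. The limma p-values rest on the spread between such pools joined with a prior variance drawn from tested genes of like level.

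DLX proteins are homeodomain transcription factors that specify GABAergic neurons of the ventral forebrain and drive their tangential migration. The genes lie in convergently transcribed pairs that share enhancers: Dlx1 with Dlx2 and Dlx5 with Dlx6. Dlx1 and Dlx2 act first, in progenitors of the ganglionic eminences, and Dlx5 and Dlx6 follow in their postmitotic progeny. Dlx6os1, also named Evf2 or Dlx6as, is a long non-coding RNA that crosses an enhancer between Dlx5 and Dlx6, binds DLX proteins and modulates transcription in the Dlx5/Dlx6 cluster. Dlx1as runs across Dlx1 on the opposite strand and is known to dampen Dlx1. DNMT1 copies methyl marks onto newly made DNA at CG dinucleotides and also acts on gene expression in postmitotic neurons.

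The RefSeq promoter windows of the members that have an entry are shown because CG dinucleotides are the substrate of DNMT1. Each run covers 250 bases before to 50 bases after a start, in build GRCm38.p6, 5′ to 3′ on the strand of the gene, and capitals mark CG.
Dlx1 (chr2:71529195-71529494, plus strand): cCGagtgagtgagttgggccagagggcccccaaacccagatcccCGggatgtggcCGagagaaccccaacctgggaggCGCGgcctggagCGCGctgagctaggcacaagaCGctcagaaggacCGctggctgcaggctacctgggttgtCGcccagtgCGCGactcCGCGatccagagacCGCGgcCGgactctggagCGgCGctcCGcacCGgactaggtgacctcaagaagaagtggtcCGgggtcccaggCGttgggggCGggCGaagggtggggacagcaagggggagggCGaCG
Dlx2 (chr2:71546705-71547004, minus strand): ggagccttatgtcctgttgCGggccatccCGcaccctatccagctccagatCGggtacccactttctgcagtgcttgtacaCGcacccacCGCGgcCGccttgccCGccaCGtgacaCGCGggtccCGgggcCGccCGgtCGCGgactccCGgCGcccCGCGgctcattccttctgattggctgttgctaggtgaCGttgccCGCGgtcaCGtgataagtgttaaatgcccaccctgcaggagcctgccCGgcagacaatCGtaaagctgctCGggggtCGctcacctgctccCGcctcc
Dlx6os1 (chr6:6869484-6869783, minus strand): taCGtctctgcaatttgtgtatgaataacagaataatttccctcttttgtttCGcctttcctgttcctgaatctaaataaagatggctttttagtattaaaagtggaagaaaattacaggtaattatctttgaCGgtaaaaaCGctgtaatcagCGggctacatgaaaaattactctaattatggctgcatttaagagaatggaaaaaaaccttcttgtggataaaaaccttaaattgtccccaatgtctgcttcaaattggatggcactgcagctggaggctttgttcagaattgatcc
Dlx6os2 (chr6:6865101-6865400, minus strand): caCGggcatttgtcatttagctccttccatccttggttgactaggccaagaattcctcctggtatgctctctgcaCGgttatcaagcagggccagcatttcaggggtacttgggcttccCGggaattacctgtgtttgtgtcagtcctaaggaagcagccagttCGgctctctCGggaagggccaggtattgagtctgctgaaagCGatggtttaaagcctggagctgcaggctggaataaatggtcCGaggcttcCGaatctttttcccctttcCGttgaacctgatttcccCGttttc
The Dlx1 window held 27 CG and the Dlx2 window 29, against a median of 7 over 32851 promoter windows of the same 300 bases. At least as many CG occurred in 15.5% and 12.9% of all windows, respectively. Both protein-coding windows are GC-rich, at 69.3% and 66.3% GC, beside a median of 52.7%. The antisense windows with an entry, all on chromosome 6, were poorer in CG, with 10 for Dlx6os2 and 5 for Dlx6os1. Of all windows, 43.5% and 62% reached or passed these counts. Dlx5, Dlx6 and Dlx1as had no entry, so antisense and protein-coding windows were not compared within a cluster. The Dlx6os1 window was AT-rich, at 35.7% GC, and held 2 copies of TAATTA, a core that homeodomain proteins are known to bind. TAATTA is its own reverse complement, so both strands were read together. It was found in 5.29% of all windows, and 0.49% held 2 or more copies. A second RefSeq start of Dlx6os1 had 3 CG and 1 TAATTA in its window, and the Dlx1, Dlx2 and Dlx6os2 windows had 0. Methylation of these bases was not analysed here.

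On GRCm39, the build of the deposited files, the GENCODE annotation places Dlx1 at chr2:71358457-71364325 on the plus strand and Dlx2 at chr2:71373752-71377102 on the minus strand, 9426 bp apart. Dlx1as, a long non-coding RNA of 13 exon blocks and 18 transcripts, spans chr2:71346798-71369624 on the minus strand. Its exons cover 3251 bp of Dlx1, which is 60.25% of the Dlx1 exon length and 31.5% of its own. Dlx1as also shares 952 bp of exon with Metap1d, and its gene body ends 4127 bp from Dlx2, with which it shares none. In the other cluster, Dlx6 lies at chr6:6862989-6868568 on the plus strand and Dlx5 at chr6:6877804-6882092 on the minus strand, 9235 bp apart. Dlx6os1 crosses all of Dlx6 on the minus strand, at chr6:6749740-6871632, a span of 121893 bp, but 0 bp of its exons fall on Dlx6 exons. Dlx6os2 is a single exon of 1354 bp at chr6:6863797-6865150, on the same strand as Dlx6os1 and inside one of its introns. It shares 104 bp with Dlx6, and is annotated as TEC, a class of unspliced transcripts still to be checked by experiment. The library kit kept strand information, but whether reads were counted by strand is not stated, so reads over shared exons can belong to either partner. Among exons, that limit touches Dlx1 and Dlx1as over many bases, Dlx6 and Dlx6os2 over few, and Dlx6 and Dlx6os1 over none. The libraries were of total RNA, so reads of unspliced Dlx6os1 could also be counted as Dlx6os2. Dlx6os2 covers an intron of Dlx6, so without counting by strand, reads of unspliced Dlx6 could be counted as Dlx6os2 too. Likewise, reads of unspliced Dlx6os1 could then be counted as Dlx6. The comparisons of Dlx6 with Dlx6os1 and Dlx6os2 are therefore not free of this limit.

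**Figure D1:**
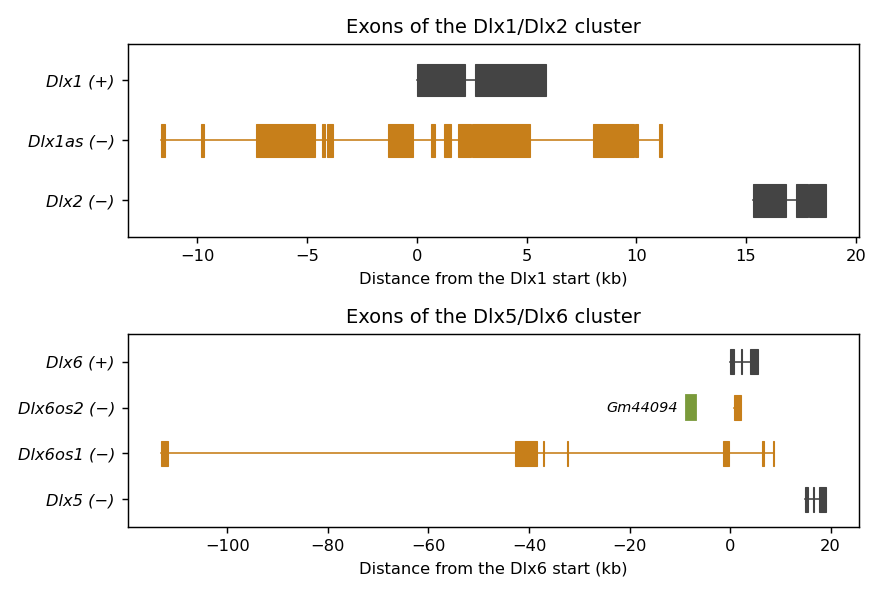
Exon blocks (boxes) and spans (lines) of the Dlx genes (dark) and their antisense RNAs (orange) against the distance in kb from the start of Dlx1 (top) and Dlx6 (bottom), strand in parentheses. Dlx1as exons lie over 60.25% of the Dlx1 exon length, while Dlx6os1 crosses Dlx6 with its exons outside those of Dlx6. The non-coding gene Gm44094 (green) sits in an intron of Dlx6os1.

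The targeted gene was read first. Dnmt1, counted over the whole gene, was at 2238 and 2341 in the control and 2164 and 2210 in the KO libraries (log2 fold change -0.07, limma adjusted p = 0.461), and a whole-gene count does not separate the floxed exons.

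On the deposited scale, 6 of the 7 members rose in the Dnmt1 KO and none fell. Estimates there were larger for the antisense RNAs than for the protein-coding genes. Dlx6 was the member that did not pass the test. In the same fit, 1189 of 14323 genes (8.3%) were higher and 1287 (8.99%) lower in the KO, by limma on log2(normalized count + 1) with a Benjamini-Hochberg adjusted p below 0.05. The same 6 members had no overlap between genotypes, with both KO libraries above both controls, as had 28.4% of all tested genes. The median log2 fold change of the members was 0.39, beside -0.003 over all tested genes. These directions hold on the deposited scale and not when libraries were scaled to the GABA synthesis and transport genes Gad1, Gad2 and Slc32a1. That scaling moved the median of all genes to -0.60 and put Dlx1, Dlx2, Dlx5 and Dlx6 lower in the KO, with values given beside the interneuron markers. With each library's trend over length and GC content removed, Dlx6os1 was at 0.49, as was Dlx1, and Dlx5 was at 0.57. In that setting Dlx1as at 0.78 and Dlx6os2 at 1.30 stayed above the protein-coding genes.

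**Figure D2:**
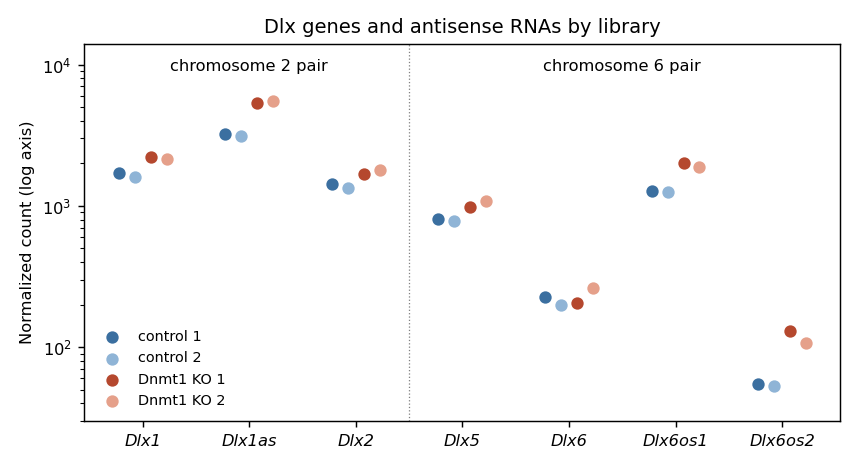
Normalized counts (log axis) of the 7 Dlx RNAs in the 2 control (blue) and 2 Dnmt1 KO (red) libraries, 1 point per library. For every RNA but Dlx6 both KO points lie above both control points on this scale, with the widest gap for Dlx6os2, from a mean of 53.8 to 119. Scaled to Gad1, Gad2 and Slc32a1, the 4 protein-coding genes were lower in the KO instead, as was the median of all tested genes, at -0.60 on the log2 scale.

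Dlx1, which with Dlx2 starts the subpallial cascade, was counted at 1716 and 1601 in the controls and at 2214 and 2140 in the KO (all normalized counts). The mean was 1659 ± 81.7 in the control and 2177 ± 52.3 in the KO (SD, n = 2 per genotype), and the log2 fold change was 0.39 (SE 0.059, 95% interval 0.27 to 0.52, limma adjusted p = 0.000264). Both KO libraries exceeded both controls by more than the replicates differed. Dlx2, its partner, gave 1417 and 1346 in the control and 1690 and 1803 in the KO libraries, a log2 fold change of 0.34 (SE 0.062, 95% interval 0.21 to 0.47, limma adjusted p = 0.00151). The balance of the pair stayed within the replicate spread, since the ratio of Dlx1 to Dlx2 was 1.21 and 1.19 in the control and 1.31 and 1.19 in the KO libraries. The difference in its log2 ratio was 0.06 (exact two-sided permutation p = 1), and was -0.02 without KO replicate 1.

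Dlx5, which acts downstream of Dlx1 and Dlx2 in postmitotic neurons, had 804 and 778 in the control and 977 and 1088 in the KO libraries. Its mean of 791 ± 18.2 went to 1032 ± 79 (SD, n = 2 per genotype), and the log2 fold change was 0.38 (SE 0.075, 95% interval 0.22 to 0.54, limma adjusted p = 0.00251). The groups did not overlap, and the KO pair was the more widely spaced. With each library's trend over length and GC content removed, the estimate was 0.57. Dlx6, its partner on the opposite strand, had 227 and 199 in the control and 205 and 262 in the KO libraries. The genotypes overlapped, and the log2 fold change of 0.12 (SE 0.140, 95% interval -0.17 to 0.42) did not pass the test (limma adjusted p = 0.604), with -0.05 when KO replicate 2 was left out. The interval reaches the size measured for Dlx5, so a like change of Dlx6 was not distinguishable at 195 to 254 reads per library. The ratio of Dlx6 to Dlx5 was 0.284 and 0.257 in the control and 0.211 and 0.242 in the KO libraries, lower in both KO libraries, with an exact two-sided permutation p of 0.333. That is the smallest p that 2 against 2 libraries allow, and no ratio here could pass 0.05.

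Dlx1as had the smallest adjusted p of the members and ranked 14 of all tested genes by it. It stood at 3244 and 3137 in the control and at 5324 and 5522 in the KO libraries. The mean rose 1.7-fold, from 3191 ± 75.4 to 5423 ± 140 (SD, n = 2 per genotype), or by 0.77 on the log2 scale (SE 0.047, 95% interval 0.67 to 0.87, limma adjusted p = 5.26e-08). The genotypes were far apart compared with the spacing of their replicates. A rise at least this large occurred in 11.9% of the 747 tested long non-coding RNAs.

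Dlx6os1, the Evf2 RNA, had 1269 and 1257 in the control and 1997 and 1869 in the KO libraries. The log2 fold change was 0.61 (SE 0.061, 95% interval 0.48 to 0.74, limma adjusted p = 6.05e-06), and 16.7% of the tested long non-coding RNAs changed by at least as much in this direction. Dlx6os2, the single-exon RNA inside Dlx6, had 54.6 and 53.1 in the control and 130 and 107 in the KO libraries, from 61, 52, 132 and 98 reads. Its mean rose 2.17-fold, from 53.8 ± 1.06 to 119 ± 16.4 (SD, n = 2 per genotype), or by 1.12 on the log2 scale (SE 0.20, 95% interval 0.69 to 1.55, limma adjusted p = 0.00121). This was the highest estimate among the members and the one with the widest interval, at the lowest counts. Reads of unspliced Dlx6os1 could not be told apart from those of Dlx6os2, nor could those of unspliced Dlx6 if strand was not used. TEC genes as a class were higher in the KO, with 134 of 616 tested (21.8%) called higher, 0 lower and a median of 0.68 on the log2 scale. Of them, 20.1% reached the value of Dlx6os2, so it was not set apart from its class. Long non-coding RNAs had a median of 0.12, with 6.96% called higher, and protein-coding genes one of -0.02, with 7.86%.

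**Figure D3:**
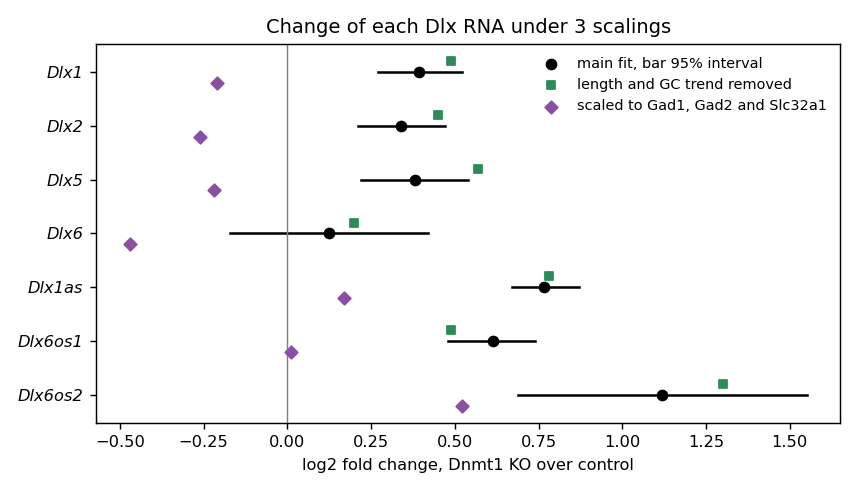
Log2 fold change of each Dlx RNA, Dnmt1 KO over control. Black points with 95% intervals are limma estimates on the deposited scale, green squares are estimates with the length and GC trend taken out, and purple diamonds those scaled to Gad1, Gad2 and Slc32a1. Black points run from 0.12 (Dlx6) to 1.12 (Dlx6os2), while the diamonds of the 4 protein-coding genes lie below 0 and those of the antisense RNAs between 0.01 and 0.52.

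The antisense RNAs were then compared with the protein-coding genes of their cluster within each library, where the size factor cancels. The ratios are of normalized counts not divided by length, so they do not order the RNAs by level. The count of Dlx1as was 1.89 and 1.96 times that of Dlx1 in the control and 2.4 and 2.58 times in the KO libraries. Relative to Dlx2, with which Dlx1as shares no exon, the ratio was 2.29 and 2.33 in the control and 3.15 and 3.06 in the KO libraries. The mean log2 ratio went from 0.94 ± 0.04 to 1.32 ± 0.07 over Dlx1 and from 1.21 ± 0.02 to 1.63 ± 0.03 over Dlx2 (SD, n = 2 each). Both shifts, 0.37 and 0.43 on the log2 scale, were larger than the replicate spread and left no overlap (exact two-sided permutation p = 0.333 each, the smallest possible). Dlx1as was thus higher relative to both protein-coding genes of its cluster in both KO libraries, Dlx1 on the opposite strand and Dlx2 on its own.

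In the Dlx5/Dlx6 cluster, the count of Dlx6os1 was 5.56 and 6.29 times that of Dlx6 in the control libraries. In the KO libraries it was 9.69 and 7.11 times that of Dlx6. The log2 ratio differed by 0.49 between genotypes, with a wide KO spread (SD 0.32, n = 2). It was 0.27 without KO replicate 1, 0.71 without KO replicate 2 and 0.28 with the length and GC trend taken out. Over Dlx5, which lies on the strand of Dlx6os1, the ratio was 1.58 and 1.61 in the control and 2.04 and 1.72 in the KO libraries, a log2 difference of 0.23 that became -0.08 with that trend taken out, 0.11 without KO replicate 1 and 0.36 without KO replicate 2. Dlx6os2 reached 0.243 and 0.27 of Dlx6 in the control and 0.636 and 0.411 in the KO libraries, a log2 difference of 0.99. None of these ratios overlapped between genotypes on the deposited scale (exact two-sided permutation p = 0.333 each). The shift over Dlx5 is therefore the antisense ratio whose direction depends on the correction, while the other 4 kept theirs. That correction took the longest transcript as the length, 2879 bp for Dlx1as, whose exon union is 10321 bp. A correction by exon union was not run. KO libraries carried relatively more reads on long genes, with a slope of 0.0477 to 0.0538 log2 units per doubling of length between genotypes and at most 0.00356 within one, and the part of this slope in the ratios was not tested beyond that correction.

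**Figure D4:**
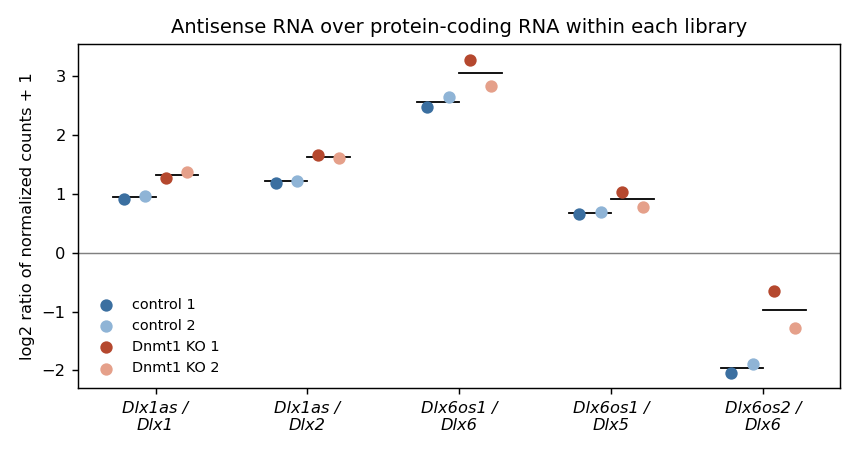
Log2 ratio of antisense RNA to protein-coding gene of the cluster (normalized count + 1) in each of the 2 control (blue) and 2 Dnmt1 KO (red) libraries, with black lines at the genotype means. All 5 ratios are higher in both KO libraries than in both controls, from a difference of 0.23 for Dlx6os1 over Dlx5 (-0.08 with the length and GC trend taken out) to 0.99 for Dlx6os2 over Dlx6.

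The 7 members took 0.116% and 0.113% of the reads of the control libraries and 0.164% and 0.168% of those of the KO libraries, or 8199 to 12711 reads. The antisense RNAs made up 52.3% and 53.1% of the member reads in the control and 59.4% and 58.6% in the KO libraries. The split between clusters differed little, and the Dlx1/Dlx2 cluster held 72.7% to 74% of the member reads in every library.

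For other pairs of a protein-coding gene and an overlapping long non-coding RNA on the opposite strand, the difference in log2 fold change had a median near 0. Pairs of a Dlx gene with a Dlx antisense RNA were left out, and the pair of Dlx1as with Metap1d was kept. Over the 450 tested pairs, the log2 fold change of the non-coding RNA minus that of the coding gene had a median of -0.01 (quartiles -0.31 and 0.42). This difference was positive in 49.3%. Among the 56 pairs whose coding gene was called higher, it was positive in 20 and had a median of -0.23. In 5 pairs both genes were called higher, and there the median was 0.52, beside 0.37 for Dlx1as over Dlx1. These are descriptions over pairs that differ in level and overlap.

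Levels were compared between members per length, in TPM, counts per exon-union length brought to 1 total per library. In the control, Dlx2 was highest at 158 ± 4.21, followed by Dlx5 at 114 ± 1.5 (SD, n = 2 each). Dlx1as at 101 ± 1.4 and Dlx1 at 101 ± 3.97 overlapped and could not be ordered. Dlx6os1 at 51.2 ± 0.151, Dlx6 at 25.6 ± 2.15 and Dlx6os2 at 13 ± 0.129 followed without overlap. Dlx2 stood above 97.1% of tested genes and Dlx6os2 above 61.4%. In the KO, Dlx1as at 165 ± 7.71 moved above Dlx5 at 143 ± 13.9 and Dlx1 at 127 ± 0.387, and Dlx6os2 at 27.5 ± 3.22 overlapped with Dlx6 at 27 ± 5.22. The place of Dlx1as depends on the length used, since its exon union of 10321 bp pools 18 transcripts whose longest is 2879 bp. Per longest transcript it was first in both genotypes, at 318 and 523 TPM, ahead of Dlx2 at 160 and 196.

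The labelled cell type was described through its markers, and these were higher in the KO libraries while markers of most other cells were lower. For scale, 8.3% of all tested genes were called higher and 8.99% lower. The marker lists were chosen with earlier results of these data known and are not an independent check. All 11 interneuron markers were detected and higher in the KO, by 0.41 (Satb1) to 1.12 (Maf) on the log2 scale, with Sst itself at 5580 and 5963 against 8303 and 7825 and Lhx6 at 2714 and 2679 against 4270 and 4674. Their summed normalized count was 20441 to 20938 in the control and 33072 to 33361 in the KO libraries, a log2 ratio of 0.68, beside 0.57 for the sum of the members. Radial glia markers summed to 10148 to 10242 in the control and 6024 to 6226 in the KO libraries (Vim and Nes the most abundant, though Sox2 was higher), and cycling genes to 7434 to 7598 and 5199 to 5241, with all 12 called lower, Mki67 and Top2a among them. Sums were also below the control for the pallial excitatory lineage (1708 to 1850 against 3292 to 3400, 8 of 10 lower, including Tbr1 and Neurod6) and for blood (587 to 592 against 2433 to 2610, 8 of 8 tested lower, including Hba-a2 and Hbb-bt). Vessels and microglia gave 337 to 358 against 787 to 820, with 9 of 10 lower, including Kdr and Cdh5. Striatal markers gave 2302 to 2395 against 3195 to 3284 (5 of 12 lower and 1 higher, with Meis2 and Isl1 lower), and caudal eminence markers 1647 to 1681 against 2047 to 2167 (3 of 5 lower and 1 higher, with Nr2f2 and Prox1 lower), Vip and the blood factor Gata1 being at 0. In bulk samples, more cells of a type and more RNA per cell cannot be told apart, and the part of cell makeup in the Dlx values was not tested.

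Relative to the GABAergic genes of the same libraries, the protein-coding members and the antisense RNAs separated. The mean log2 level of Gad1, Gad2 and Slc32a1 was 10.25 and 10.24 in the control and 10.85 and 10.83 in the KO libraries. On that scale Dlx1 had a log2 fold change of -0.21, Dlx2 of -0.26, Dlx5 of -0.22 and Dlx6 of -0.47. All 4 were called lower in the limma fit, as were 10533 of the 14323 tested genes, while 123 were called higher. A lower call on that scale was therefore near the background. Dlx6os1 moved with the GABA genes, at 0.01 (limma adjusted p = 0.833), and Dlx1as at 0.17 and Dlx6os2 at 0.52 were called higher. Dlx1, Dlx2 and Dlx5 thus rose less than the GABAergic genes did, and the antisense RNAs by a like amount or more.

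Genes that act with the Dlx genes were described by list. The other Dlx genes were near 0, with Dlx3 and Dlx4 at no more than 1.09 in any library and Dlx4os at 0. Of 6 transcription factors that act before or beside the Dlx genes in the forebrain, none was called higher and Otx2 alone was called lower, from 64.6 ± 14.9 to 25.9 ± 1.06 (SD, n = 2 each), by 1.27 on the log2 scale (limma adjusted p = 0.00567). Gsx1 had a log2 fold change of -0.87, Gsx2 of -0.05 and Nkx2-1, the factor of the medial ganglionic eminence, of -0.03, and none of these passed. With 8.3% of all tested genes called higher, 0 of 6 is near the background share.

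Among all tested genes, 8.3% were called higher and 8.99% lower on the deposited scale. Of 12 genes known to need or to be activated by DLX proteins, 9 were called higher, none lower and 3 neither. Their median log2 fold change was 0.60. The GABA genes Gad1 (0.63), Gad2 (0.53) and Slc32a1 (0.64) were among those called higher. In this list, 5 of the 12 also serve as interneuron markers, and the list is not independent of cell makeup. Lhx6 (0.73) and Maf (1.12), which specify medial ganglionic eminence interneurons, rose with Sp9 (0.64) and Zeb2 (0.44), a factor that directs interneurons to the cortex. The chemokine receptors that guide tangential migration also rose: Ackr3 by 0.69 and Cxcr4 by 0.58 (limma adjusted p = 0.0349), the latter from 77.9 and 92.9 to 130 and 125. The Cxcr4 call did not hold in DESeq2 (adjusted p = 0.21) or without any 1 of the 4 libraries (limma adjusted p 0.0531 to 0.188), which left 8 of the 12 called. Scaled to the GABA genes, 2 of the 12 were higher and 3 lower, beside 123 higher and 10533 lower of all 14323 tested. Gad1, Gad2 and Slc32a1 set that scale, so their mean could not differ between genotypes on it. Not called were Sp8 at -0.57 (limma adjusted p = 0.0635), Lhx8 at -0.32 (0.0786), which marks cholinergic and pallidal neurons, and Npas1 at 0.47 (0.389).

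Of 5 genes known to be restrained by DLX1 and DLX2, Map2 (0.17) and Nrp2 (0.19, limma adjusted p = 0.0222) were called higher, Gap43 (-0.40) lower, and Pak3 (-0.00) and Olig2 (-0.53) neither. The higher calls went to 0 without KO replicate 1 and to 1 without control replicate 2 or KO replicate 2. Among proteins that bind DLX proteins, Grip1 rose by 0.69, Ndn fell by 0.85 and Meis2, also a striatal marker, fell by 0.41 on the log2 scale, while Maged1 had 0.06 and did not pass. Of 6 proteins found with the Evf2 RNA, Sox2 was called higher (0.40), and 3 were with the length and GC trend taken out. The others did not pass, among them the chromatin remodellers Smarca4 at 0.08 and Smarcc2 at 0.11 and the cohesin subunits Smc1a at -0.02 and Smc3 at -0.00. None of 4 chromosome 6 genes reported to respond to Evf2 was called by limma, with Umad1 at 0.07, Lsm8 at 0.22, Akr1b8 at -0.79 and Rbm28 at -0.04. At 8.3% higher and 8.99% lower among all genes, 0 of 4 is near the background. Scaled to the GABA genes, all 6 Evf2 partners and all 5 restrained genes were called lower, together with the shift of all genes.

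Most genes around the clusters did not pass the test. Within 500 kb, 12 other genes were tested, of which 2 were called higher (8.3% of all tested genes were), 2 lower and 8 neither, with a median log2 fold change of 0.06. Gm44094, a TEC gene at chr6:6854222-6856251 within the Dlx6os1 span, on its strand and without a shared exon, had 72.5 and 91.9 in the control and 215 and 200 in the KO libraries. Its log2 fold change was 1.33 (SE 0.166, limma adjusted p = 5.28e-05), above that of Dlx6os1, and 12.2% of TEC genes reached it. Reads of unspliced Dlx6os1 could be counted as Gm44094 too. Rapgef4, a guanine nucleotide exchange factor, was at the threshold (0.46, limma adjusted p = 0.0499), and its call was lost in 10 of 17 alternatives, among them edgeR, DESeq2 (adjusted p = 0.271), voom and leaving out control replicate 2 (0.32, limma adjusted p = 0.278) or either KO replicate.

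Hat1, a histone acetyltransferase 74.8 kb from the Dlx1/Dlx2 cluster, fell by 0.53 on the log2 scale, from 228 ± 10.5 to 157 ± 3.28 (SD, n = 2 each, limma adjusted p = 0.00991). Sem1, a proteasome subunit, had -0.30 (limma adjusted p = 0.0247). Both calls were lost without control replicate 2 and in DESeq2, and that of Sem1 also without KO replicate 1. Metap1d, which shares exon bases with Dlx1as on the opposite strand, was at 55.5 and 51 in the control and 71 and 43.7 in the KO libraries, with a log2 fold change of 0.07 (limma adjusted p = 0.904). A rise like that of Dlx1as was therefore not seen on its other overlapping partner, at these low counts. The integrin gene Itga6 had -0.40 (limma adjusted p = 0.0854) and Sdhaf3 0.31. Pdk1 had 0.17, Mettl8 0.12, Dync1i2 0.05, Slc25a12 0.04 and Dcaf17 -0.02, and none passed. Within 1000 kb, 4 of 22 genes were higher and 3 lower, the additional ones being Gad1 and Tac1 (0.86) above and Dync1i1 (-0.85) below.

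**Figure D5:**
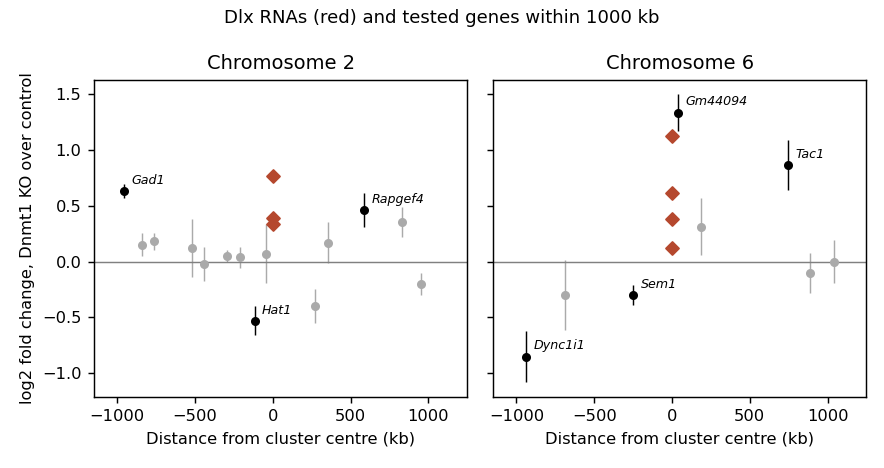
Log2 fold change, Dnmt1 KO over control, with SE, of tested genes within 1000 kb of the Dlx1/Dlx2 (left) and Dlx5/Dlx6 (right) clusters, against the distance of the gene's middle from the cluster centre in kb. Black points passed the limma test, grey points did not, and red diamonds are the Dlx members. Gm44094 at 1.33 is the neighbour with the highest value, and the other genes lie between -0.85 and 0.86.

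The genes outside the members whose profile over the 4 libraries lay nearest to the mean profile of the members were Afap1, Rn7sk, Zfp536 and Slain1. Their root mean square distances were 0.007, 0.016, 0.018 and 0.019 log2 units, among 3125 genes averaging 500 or more. Afap1, an adaptor protein of actin filaments, had 1342 and 1280 in the control and 1866 and 1936 in the KO libraries. Rn7sk, a nuclear RNA that restrains transcription elongation, had 54759 and 51888 against 77718 and 77038. With 4 libraries the likeness rests mainly on the difference between genotypes.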

How the data were processed

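The authors trimmed reads with Trim Galore 0.6.7, aligned them to GRCm39 with STAR 2.7.9a, quantified genes with Salmon 1.10.1 and normalized with DESeq2 1.32.0. The deposited signal is a normalized count: every one of the 89965 values above 0 was a whole number, within 1e-04, times 1 unit per library. These whole numbers are called reads here. Whether they are counted reads or rounded Salmon estimates is not stated. The study lists an Ensembl release among its resources without tying it to the gene counts. Recovered reads were 6970247 to 8376711 per library, and intervals rest on 2 libraries per genotype and on the prior variance.

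The test was limma 3.58.1 (R 4.3.3) with a trended prior variance and genotype as its term, fitted to log2(normalized count + 1) of genes averaging 10 or more, with Benjamini-Hochberg adjustment over 14323 genes and calls below 0.05. Ratios were tested by exact permutation over libraries in Python 3.11.15. Positions and lengths came from GENCODE M39 on GRCm39, a release other than the table's (56322 of 56883 identifiers matched, 32316 with the same version). Promoter windows came from RefSeq on GRCm38.p6, which had entries for Dlx1, Dlx2, Dlx6os1 and Dlx6os2. Alternatives were pseudocounts of 0.5 and 10, means of at least 1 and 50, TMM, quantile normalization, limma without a trend, edgeR 4.0.16, DESeq2 1.42.0 and voom (these on recovered reads), a correction for length and GC content, scaling to Gad1, Gad2 and Slc32a1, the replicate block, and each library left out. The length and GC correction used the longest transcript of each gene. The steps of the fit were tested on simulated data.

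The members and lists were chosen with earlier results of these data known. Genes named are the members, Dnmt1, tested neighbours within 500 kb, called genes of the pathway lists and every gene of lists of 6 or fewer, the defining markers and the 2 most abundant genes of the other marker lists, and the 5 nearest profiles. The uncalled genes of the activated list, and Sox2 among radial glia, Vip, Gata1 and the neighbours up to 1000 kb, were named after their values were seen. Not every gene selected by this rule is reported here.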

Additional observations from a re-analysis of the deposited data

How the results depend on the processing

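All 6 calls were kept with either pseudocount, both other minimums, TMM, quantile normalization, edgeR, DESeq2, limma-voom, the length and GC correction and each library left out. Without the variance trend no gene passed (0 of 14323, with 3339 at an unadjusted p below 0.05), and Dlx1 (0.39, adjusted p = 0.13), Dlx2 (0.34, 0.16), Dlx5 (0.38, 0.151), Dlx1as (0.77, 0.0623), Dlx6os1 (0.61, 0.0748) and Dlx6os2 (1.12, 0.0643) lost their calls at unchanged values. Scaled to Gad1, Gad2 and Slc32a1, log2 fold changes were -0.21 for Dlx1, -0.26 for Dlx2, -0.22 for Dlx5, -0.47 for Dlx6 and 0.01 for Dlx6os1. Genes called numbered 2476, against 1327 by DESeq2 and 10656 with that scaling, and 1525 (without control replicate 2) to 2205 with a library left out. Leaving out each library in turn gave 0.34 to 0.44 for Dlx1, 0.29 to 0.38 for Dlx2, 0.30 to 0.46 for Dlx5, -0.05 to 0.30 for Dlx6, 0.74 to 0.79 for Dlx1as, 0.57 to 0.66 for Dlx6os1 and 0.98 to 1.26 for Dlx6os2. In those fits the lone library was assumed to vary like the other group. The ratio of Dlx6os1 to Dlx5 went to -0.08 with the length and GC correction, and that of Dlx1 to Dlx2 to -0.02 without KO replicate 1 (up to 0.13 without KO replicate 2). The causes of the changed calls were not tested.

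Same-numbered libraries did not deviate together (r = -0.085 over 14323 genes), so the numbers were not taken to pair them. With the replicate block 2957 genes were called, and the members kept their values and sides, at 0.39 for Dlx1, 0.34 for Dlx2, 0.38 for Dlx5, 0.12 for Dlx6, 0.77 for Dlx1as, 0.61 for Dlx6os1 and 1.12 for Dlx6os2. With 52 to 132 reads per library, Dlx6os2 had the widest interval.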
